A study of Mus musculus with 5 samples.

Results

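The genes that flank the leptin receptor gene Lepr on mouse chromosome 4 were compared between hearts of diabetic db/db mice and wild-type (WT) mice. They were chosen by a rule of position and a count minimum, which used no difference between the genotypes: rows of the coding gene table with a gene start between 96 and 107 Mb (build GRCm38.p6), without Lepr itself and Acot11, and with at least 10 counts summed over the 5 libraries. This left 35 genes out of 17228 in the table, and 1083 other genes of the table lay elsewhere on chromosome 4. The window held 48 rows before the count minimum. The 13 rows under it included Dab1 and Dnajc6, and the nearest to the minimum was Ube2u with 8 counts. The nearest kept genes were Efcab7, Foxd3, Wdr78 and Mroh7, with 26, 28, 21 and 20 counts. For one member the table's symbol Pgm2 belongs to gene ID 72157, which RefSeq names Pgm1.

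Poly-A RNA of the whole heart had been sequenced in 5 libraries from mice aged 6 months, 3 from db/db mice (2 females and 1 male) and 2 from WT mice (1 female and 1 male). The db/db mice were labelled diabetic, with the genotype KsJ-Lepr db/Lepr db, and the WT mice non-diabetic, and the strain was given as C57BL for all. The KsJ background was named only for the db/db genotype, the protocol spoke of male mice although 3 labels say female, and the labels leave unsaid whether the libraries came from different animals, so p-values speak only of the spread among these 5 libraries. The libraries held 8356099 to 10381326 counts in db/db and 8895194 to 9119182 counts in WT. Cardiomyocyte markers (Myh6, Tnnt2, Tnni3, Actc1 and Ryr2) summed to 59500 to 71400 CPM (counts scaled to library size with the TMM method) in db/db and 52900 to 54500 CPM in WT, so the heart label fits its defining markers.

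The db allele is a point mutation in Lepr that creates a splice site and truncates the signalling form of the receptor. Leptin acts through this receptor and the JAK kinases on the hypothalamus, and mice without the signal overeat and become obese and diabetic. Genes near a selected mutation are inherited with it, so a congenic or mixed-strain colony can differ from its controls over a stretch of chromosome around the mutated gene. The C57BLKS background carries DNA of DBA/2J beside that of C57BL/6J. The labels do not say which alleles the db/db and WT mice carried here, and sequence variants were not analysed here. The comparison asked whether the neighbours of the db locus differed between the genotypes more than the rest of the table.

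Lepr had 3 and 7 counts in the db/db females and 5 in the db/db male, against 37 counts in the WT female and 14 in the WT male. All db/db libraries lay below both WT libraries. Its level was 0.556 ± 0.217 CPM in db/db (SD, n = 3) and 2.56 ± 1.47 CPM in WT (SD, n = 2). The log2 fold change was -2.21 (SE 0.56), with an edgeR adjusted p of 0.106, against 0.0263 with sex in the model. Without the WT female the value was -1.45 (adjusted p = 0.931). At so few counts the mutation could not be checked by the level of the gene, and a count over the whole gene does not separate the truncated from the full receptor. In whole hearts, fewer cells of a type and less RNA per cell cannot be told apart.

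The start of Lepr lies 58 kb beyond the end of its nearest neighbour Leprot, a small membrane protein known to limit leptin receptor at the cell surface. In humans these genes share a promoter. The RefSeq windows below (GRCm38.p6, 250 bases before to 50 bases after the annotated start) are shown because Leprot and Lepr stand side by side with different values in db/db hearts, and Prkaa2 because it is one of the members with the clearest difference. They lie at chr4:101647533-101647832 on the plus strand for Leprot, chr4:101717157-101717456 on the plus strand for the first annotated start of Lepr and chr4:105109849-105110148 on the minus strand for Prkaa2, each printed 5′ to 3′ with CG dinucleotides in capitals.
Leprot: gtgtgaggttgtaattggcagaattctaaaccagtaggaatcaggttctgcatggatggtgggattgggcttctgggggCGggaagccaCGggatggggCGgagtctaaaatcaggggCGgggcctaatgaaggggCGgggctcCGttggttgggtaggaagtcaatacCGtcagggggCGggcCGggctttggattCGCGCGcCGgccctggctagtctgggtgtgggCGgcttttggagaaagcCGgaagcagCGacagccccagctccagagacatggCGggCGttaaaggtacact
Lepr: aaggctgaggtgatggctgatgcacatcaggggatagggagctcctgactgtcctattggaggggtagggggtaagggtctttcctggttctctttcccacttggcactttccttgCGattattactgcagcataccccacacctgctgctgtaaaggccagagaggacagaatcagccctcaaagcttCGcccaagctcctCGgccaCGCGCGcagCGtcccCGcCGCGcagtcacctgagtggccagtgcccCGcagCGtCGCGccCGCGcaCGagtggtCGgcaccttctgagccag
Prkaa2: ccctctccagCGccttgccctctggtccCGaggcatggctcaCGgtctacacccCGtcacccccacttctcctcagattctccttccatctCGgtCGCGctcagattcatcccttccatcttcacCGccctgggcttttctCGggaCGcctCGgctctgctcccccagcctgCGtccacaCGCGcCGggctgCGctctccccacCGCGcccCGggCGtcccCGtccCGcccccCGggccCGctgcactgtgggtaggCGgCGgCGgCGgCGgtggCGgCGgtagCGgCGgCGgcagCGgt
The mouse annotation thus gives Leprot and Lepr separate starts. CG occurred 18 times in each of these windows and 35 times in that of Prkaa2. Another annotated start of Lepr, not printed, had 13 CG. The windows of Pde4b, the member with the lowest p, are not printed either and had 8, 2, 1 and 6 CG. Of the 32851 windows in the table, 29.7% held at least 18 CG and 6.95% at least 35. A window was found for 27 of the 35 members, 39 windows in all, with a median of 20 CG, against a median of 7 CG over all windows. The members had passed the count minimum, which was not applied to the other windows, so these medians are not from like sets of genes. Methylation was not measured, so these counts describe the sequence only.

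Of the 35 members, 31 had enough counts for the test of all 12540 genes (the edgeR filter), and none of them passed an adjusted p of 0.05. Over all genes tested, 1.03% passed (0.670% higher in db/db and 0.359% lower), and of the other 753 genes of chromosome 4 that were tested 3 did (0.398%). Among the members 3 had an unadjusted p under 0.05 (9.68%, Pde4b and Prkaa2 among them), against 12.9% of all genes. No tested member differed by 2-fold or more, a size that 2.97% of all genes reached. For 24 of the 31 the 95% interval of the fold change lay within 2-fold in both directions (77.4%, against 77.5% of all genes), and for the other 7 it reached past 2-fold.

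The median absolute log2 fold change was 0.238 for the 31 members, 0.199 for all other genes tested and 0.192 for the other genes of chromosome 4. At the 90th percentile the members were lower, at 0.505 against 0.591. Members of 1 to 10 CPM had a median of 0.269, against 0.276 for other genes of that level. Members over 10 CPM, 16 in number, had a median of 0.23, against 0.17. The larger median of the members depended on the libraries: it was 0.232 against 0.241 for other genes in the females only, 0.257 against 0.267 without the WT male and 0.18 against 0.176 without the db/db male, but 0.316 against 0.195 without the WT female.

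**Figure D1:**
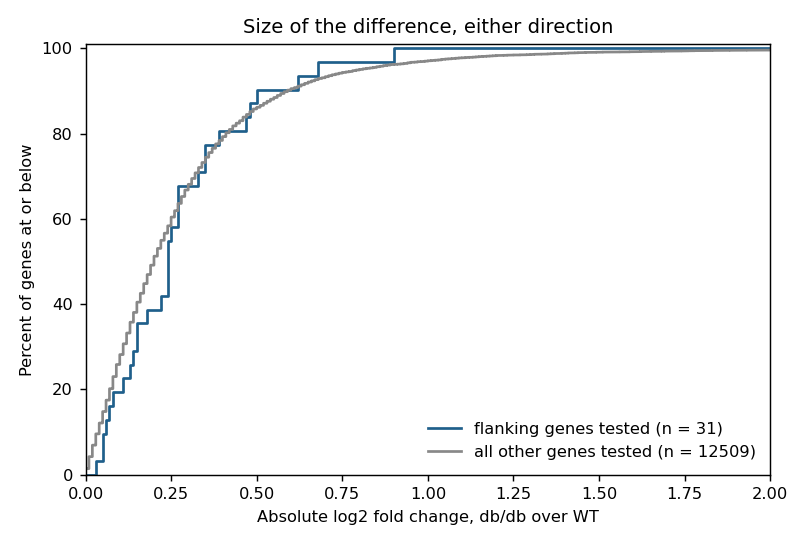
Percent of genes (vertical axis) with an absolute log2 fold change of db/db over WT at or below the value on the horizontal axis, for the 31 flanking genes tested and all 12509 other genes tested. The flanking genes have a median of 0.238, against 0.199, and none reaches 1, the value of a 2-fold difference.

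In direction the members leaned to lower values in db/db: 10 were above 0 and 21 below (67.7%), where 51.0% of all genes were below 0. Their median log2 fold change was -0.224, against -0.007 over all genes and 0.019 over the other genes of chromosome 4. This median depended on the window: it was -0.193 for the 20 members tested within 3 Mb of Lepr. For the 74 genes tested in a window wider by 5 Mb on each side it was -0.054. Groups did not overlap for 12 members (38.7%, against 31.6% of all genes). In 10 of these (32.3%, with Cyp2j9, Tm2d1, Usp1, Ror1, Pde4b, Mier1, Slc35d1, Prkaa2 and Usp24 among them) every db/db library was lower, against 16.5% of all genes, and in Ak4 and Pars2 (6.45%) every db/db library was higher, against 15.1%. Scaling to library totals gave a median of -0.189 over all genes and put 90.3% of the members below 0, against 73.9% of all genes. No test was made over the list.

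The lean rested on small differences and varied with the libraries. The median deviation of the members from their own mean log2 CPM was -0.076 and 0.031 in the db/db females and -0.104 in the db/db male, against 0.123 in the WT female and 0.086 in the WT male. Either WT library held the highest value for 21 of the 31 members, a share that was not worked out for all genes. Without the WT female the median log2 fold change was -0.078. The same library stood apart by gene length over the whole table: the longest 25% of genes deviated by a median of 0.152 there and the shortest 25% by -0.178, while in the db/db male these values were -0.093 and 0.16. Of the members, 11 of 31 were among the longest 25% (at least 4184 bases), and with each library's trend with length taken out the median was -0.137. Cardiomyocyte marker sums also differed between the groups, as given above, and endothelial markers (Pecam1, Cdh5 and Kdr) summed to 565 to 725 CPM in db/db and 684 to 860 CPM in WT. The markers did not move together. Log2 fold changes were 0.31, 0.62, 0.38, -0.04 and 0.08 for Myh6, Tnnt2, Tnni3, Actc1 and Ryr2. They were -0.03, -0.17 and -0.62 for Pecam1, Cdh5 and Kdr. The part of gene length or of cell types in the lean was not tested.

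**Figure D2:**
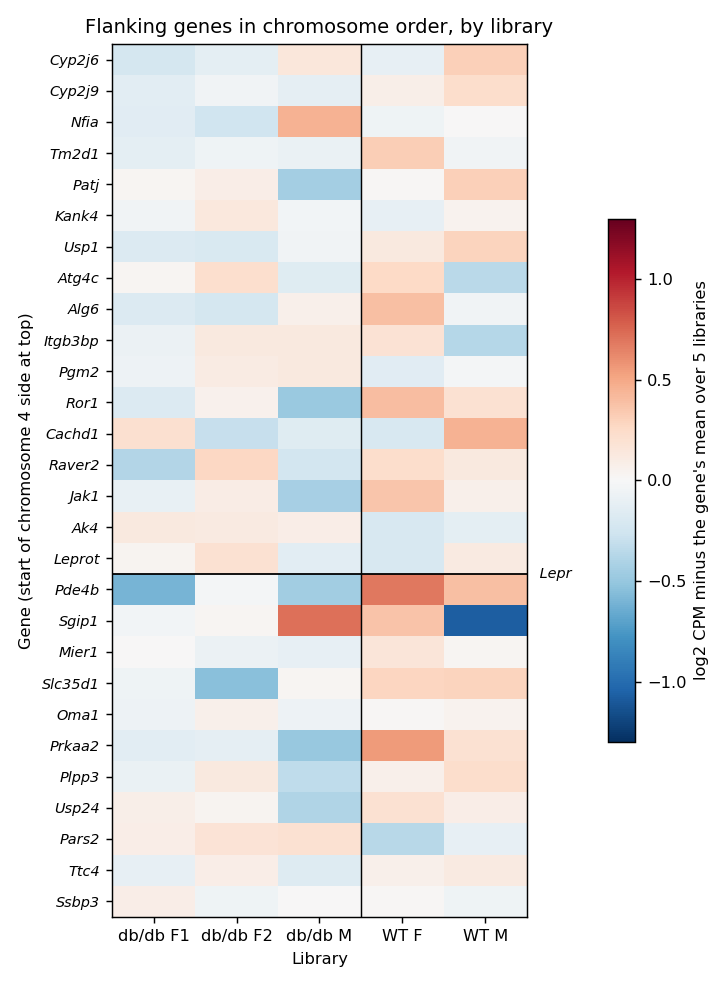
Each row is 1 of 28 flanking genes tested in chromosome order and each column a library, db/db left of WT; the colour gives log2 CPM minus the gene's mean over the 5 libraries (log2 units). The black line marks the place of Lepr, and the median deviations over all 31 genes tested are -0.076, 0.031 and -0.104 in the db/db libraries, against 0.123 and 0.086 in the WT libraries.

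By distance from Lepr, the 14 members tested within 2 Mb had a median absolute log2 fold change of 0.273, the 10 at 2 to 4 Mb 0.237 and the 7 beyond 4 Mb 0.224. The size was thus smaller in each bin farther out, in bins of few genes and with no test, while the signed medians of -0.195, -0.237 and -0.181 followed no order. The 19 on the side towards the start of the chromosome had a signed median of -0.238 and no unadjusted p under 0.05. All 3 with such a p were among the 12 on the other side, where the signed median was -0.187. The median absolute log2 fold change had the opposite order, 0.238 on the side towards the start and 0.313 on the other.

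**Figure D3:**
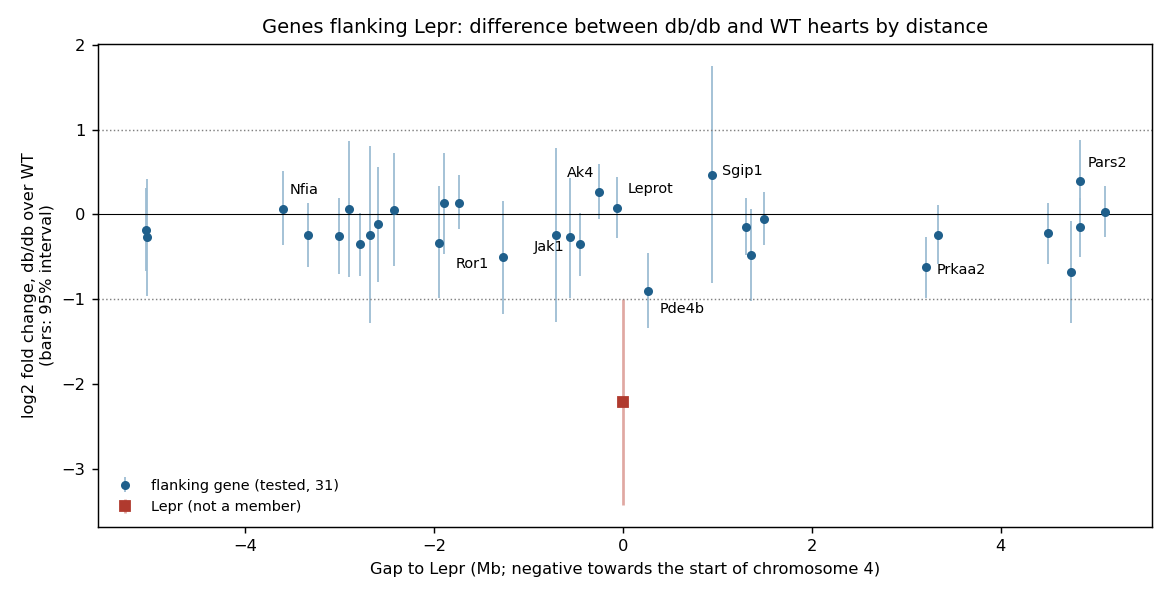
The log2 fold change of db/db over WT with its 95% interval (vertical axis) against the gap to Lepr in Mb (horizontal axis, negative towards the start of the chromosome) for the 31 flanking genes tested, with Lepr as a square. Lepr lies at -2.21, and the flanking genes lie between -0.90 and 0.47.

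Per length, the members spanned a wide range of levels. Pgm2, phosphoglucomutase of glycogen metabolism, was the highest, with 118 to 132 FPKM over the 5 libraries, and Plpp3 and Leprot followed with medians of 33.1 and 21.5 FPKM, though the ranges of these next ones (21.6 to 37.4 and 17.0 to 23.8 FPKM) overlapped. In all, 8 members had a median over 10 FPKM, 17 had 1 to 10 FPKM and 10 were under 1 FPKM.

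The members that carry leptin, cytokine and cAMP signals differed among themselves. Leprot had 37.9 and 42.3 CPM in the db/db females and 33.5 CPM in the db/db male, against 31.8 CPM in the WT female and 40.1 CPM in the WT male. The groups overlapped, and the log2 fold change of 0.08 (SE 0.16, 95% interval -0.28 to 0.44, adjusted p = 0.877) leaves out a 2-fold difference in either direction. Jak1, the kinase of many cytokine receptors, had 88.5, 102 and 70.3 CPM in the db/db females and male, against 122 and 99.5 CPM in the WT female and male. The second db/db female lay above the WT male, and the log2 fold change was -0.35 (SE 0.17, adjusted p = 0.409).

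Pde4b, a phosphodiesterase that degrades cAMP and lies 272 kb beyond Lepr, had the lowest adjusted p of the members tested. It had 10.4 and 15.7 CPM in the db/db females and 11.6 CPM in the db/db male, against 25.9 CPM in the WT female and 21.0 CPM in the WT male. Every db/db library was below both WT libraries. Means were 12.6 ± 2.78 CPM in db/db (SD, n = 3) and 23.5 ± 3.43 CPM in WT (SD, n = 2), from 86 to 160 counts in db/db and 193 to 266 counts in WT. The log2 fold change was -0.90 (SE 0.20, 95% interval -1.34 to -0.45), a ratio of 0.537. It ranked 156 of 12540 by p and missed the threshold (adjusted p = 0.0737). It passed with DESeq2 (adjusted p = 0.0288), with sex as a covariate (0.00992), without the second db/db female (0.0249) and with the db/db male left out (0.0387), but not without the WT female (-0.74, adjusted p = 0.63), the first db/db female (-0.77, 0.278) or the WT male (-1.03, 0.134). Nor did it pass with limma-voom (0.0838). In the authors' deposited table it had -0.89 with a q of 0.0529, and there no member had a q under 0.05, against 1.35% of the genes with a q.

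Among the neighbours of Jak1 and Leprot, Ak4, an adenylate kinase of the mitochondrial matrix, had 29.5, 29.1 and 28.6 CPM in the db/db females and male, against 23.4 and 24.7 CPM in the WT female and male. All db/db libraries were above both WT libraries, at 0.27 on the log2 scale (SE 0.15, adjusted p = 0.451). Raver2, an RNA-binding protein, had 2.55, 4.12 and 2.83 CPM in the db/db females and male, against 3.99 and 3.71 CPM in the WT female and male. The second db/db female was the highest of all, and the log2 fold change was -0.27 (SE 0.32, adjusted p = 0.762). Its extent overlaps that of Jak1, and both had counts that were not whole in 4 of 5 libraries, so reads may have been shared out between them. Sgip1, an endocytic adaptor, had 1.12, 1.18 and 2.02 CPM in the db/db females and male, against 1.56 and 0.436 CPM in the WT female and male. These groups overlapped, and the log2 fold change of 0.47 had a 95% interval from -0.81 to 1.75. Leaving out the WT female gave 1.67, leaving out the WT male gave -0.14, and the females only gave -0.43.

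**Figure D4:**
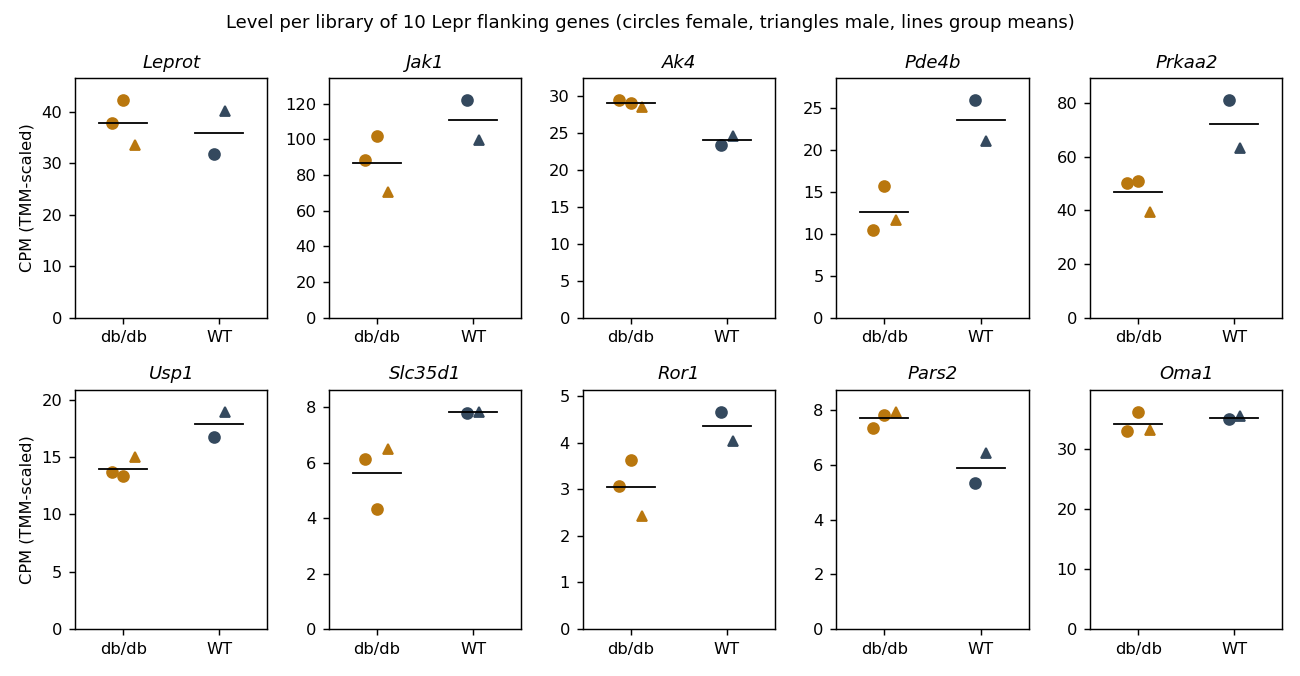
Level in CPM (vertical axes, TMM-scaled, from 0) of 10 flanking genes in each library, db/db left of WT, with circles for females, triangles for males and lines for group means. Pde4b, Prkaa2, Usp1, Slc35d1 and Ror1 lie lower in every db/db library, Ak4 and Pars2 higher, and Leprot, Jak1 and Oma1 overlap.

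The list of lipid and sterol enzymes of the window held 12 genes, of which 10 were in the table and 6 were tested. None was called, against 1.03% of all genes, and all 6 were below 0, against 67.7% of the members and 51.0% of all genes. Their median log2 fold change was -0.25, against -0.007 over all genes. Acot11, in the window but kept out by the rule, was not on this list. Acot11 lay above 0, at 0.41 with overlapping groups (adjusted p = 0.434), so the shared sign holds for the listed genes only. Prkaa2, the catalytic alpha2 subunit of the energy sensor AMPK, had 50.1 and 50.8 CPM in the db/db females and 39.3 CPM in the db/db male, against 81.0 CPM in the WT female and 63.3 CPM in the WT male. No db/db library reached a WT library. The log2 fold change was -0.62 (SE 0.16, 95% interval -0.98 to -0.26), a ratio of 0.649, with an adjusted p of 0.124 that became 0.00483 with sex as a covariate. At 8185 bases its transcript is long, and with the length trend taken out the value was -0.48 (adjusted p = 0.16), or -0.52 (0.027) with sex as well. With the db/db male and the WT female both left out it was -0.33 (0.45).

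Plpp3, a phosphatase of lysophosphatidic acid, had 89.3, 104 and 75.3 CPM in the db/db females and male, against 99.5 and 112 CPM in the WT female and male. The second db/db female lay between the WT libraries (-0.24, SE 0.16, adjusted p = 0.541). Cyp2j6, of the arachidonic acid epoxygenase family, had 7.85, 8.44 and 10.3 CPM in the db/db females and male, against 8.56 and 11.4 CPM in the WT female and male. Cyp2j9, of the same family, had 2.65, 2.85 and 2.70 CPM in the db/db females and male, against 3.11 and 3.49 CPM in the WT female and male. Cyp2j6 overlapped between the groups and Cyp2j9 did not, at log2 fold changes of -0.18 and -0.27 (adjusted p = 0.772 and 0.761). Their extents overlap each other and that of Cyp2j5, and reads of such similar copies may be split between them.

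Related genes elsewhere in the genome set these members in their families. Over all genes tested, 1.03% were called and 49% were above 0. Of the 7 AMPK subunit genes none was called, 2 were above 0, and the median was -0.13. Prkaa1, the other catalytic subunit, had -0.24 (SE 0.16, adjusted p = 0.541). Of the 4 JAK kinases none was called, with -0.28 for Jak2, 0.06 for Jak3 and -0.16 for Tyk2. Of the 5 adenylate kinases tested 4 were above 0 and none was called, and Ak1, the cytosolic form of muscle, had 0.19 (adjusted p = 0.644). In the list of 5 JAK and leptin signalling neighbours (Leprot, Jak1, Pde4b, Raver2 and Prkaa2), Leprot alone was above 0, and the median was -0.35, against -0.007 over all genes, of which 51.0% were below 0. This list, drawn up with earlier results known, holds the members with the lowest p, Pde4b and Prkaa2.

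The table's strand differs from that of GENCODE M21 for 4 of the 35 members, Jak1, Wdr78 and Slc35d1 among them. Whether reads were counted by strand is not stated in the sources used here.

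Members of mitochondria and of glycogen metabolism had log2 fold changes near or above 0, and none passed. Oma1, a protease of the inner membrane, had 33.1, 36.3 and 33.2 CPM in the db/db females and male, against 35.0 and 35.6 CPM in the WT female and male, a difference of -0.05 on the log2 scale (SE 0.14, 95% interval -0.36 to 0.26). Pars2, the mitochondrial prolyl-tRNA synthetase, had 7.34, 7.85 and 7.96 CPM in the db/db females and male, against 5.35 and 6.43 CPM in the WT female and male. Every db/db library was above both WT libraries for Pars2, at 0.39 (SE 0.23, adjusted p = 0.485). Pgm2 had 269, 302 and 307 CPM in the db/db females and male, against 254 and 276 CPM in the WT female and male. The first db/db female lay between the WT libraries and the other db/db libraries above them, at 0.14 (SE 0.14, adjusted p = 0.715).

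Deubiquitinases and genes of sugar-chain synthesis had log2 fold changes below 0, and none passed. Usp1, a deubiquitinase of DNA repair, had 13.7, 13.4 and 15.0 CPM in the db/db females and male, against 16.8 and 19.0 CPM in the WT female and male, without overlap (-0.35, SE 0.17, adjusted p = 0.406). Usp24, another deubiquitinase, had 67.0, 65.0 and 48.5 CPM in the db/db females and male, against 73.2 and 67.6 CPM in the WT female and male. The db/db male was the lowest and the db/db females lay just under the WT male (-0.22, SE 0.16, adjusted p = 0.58). Slc35d1, a nucleotide-sugar transporter used in chondroitin synthesis, had 6.12, 4.32 and 6.48 CPM in the db/db females and male, against 7.79 and 7.85 CPM in the WT female and male, without overlap (-0.48, SE 0.25, adjusted p = 0.433). Alg6, a glucosyltransferase of N-glycan assembly, had -0.33 (adjusted p = 0.672), with overlap.

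Among transcription and adhesion genes, Nfia, a nuclear factor I transcription factor, had 104 and 96.6 CPM in the db/db females and 158 CPM in the db/db male, against 111 and 116 CPM in the WT female and male. Only the db/db male stood high, and the log2 fold change was 0.07 (SE 0.20, adjusted p = 0.905). Ror1, a Wnt5a receptor, had 3.06, 3.63 and 2.43 CPM in the db/db females and male, against 4.67 and 4.03 CPM in the WT female and male, without overlap (-0.50, SE 0.30, adjusted p = 0.502). Tm2d1, a membrane protein that binds amyloid beta, had 15.7, 16.5 and 16.2 CPM in the db/db females and male, against 21.4 and 16.6 CPM in the WT female and male. Here only the WT female stood high (-0.24, SE 0.17, adjusted p = 0.588). The corepressor Mier1 had 23.1, 21.9 and 21.5 CPM in the db/db females and male, against 25.7 and 23.4 CPM in the WT female and male. The groups lay next to each other without overlap (-0.15, SE 0.15, adjusted p = 0.722). Ssbp3, a cofactor of LIM-domain complexes and the member farthest from Lepr at 5.1 Mb, had 51.2, 46.3 and 48.6 CPM in the db/db females and male, against 49.0 and 46.5 CPM in the WT female and male. These values were mixed (0.03, SE 0.14, 95% interval -0.27 to 0.33), and the co-chaperone Ttc4 had a log2 fold change of -0.15. Patj, a scaffold of tight junctions, Kank4, an adaptor at adhesions, Atg4c, a protease of autophagy, and Cachd1, a calcium channel modulator, had log2 fold changes of -0.25, 0.06, 0.05 and -0.24, all with overlapping groups. For Itgb3bp, a centromere protein, the value was 0.13.

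The 4 members below the filter had few counts. Foxd3, a transcription factor of the neural crest, had 7 and 12 counts in the db/db females and 5 in the db/db male, against 3 and 1 in the WT female and male. Mroh7 had 6, 3 and 8 counts in the db/db females and male, against 2 and 1 in the WT female and male. Neither gene overlapped between the groups, and the ratios over summed counts, scaled by library size, were 4.26 (exact 95% counting interval 1.46 to 16.9) for Foxd3 and 4.02 (1.16 to 21.4) for Mroh7. Efcab7, of cilia, had 7, 1 and 11 counts in the db/db females and male, against 2 and 5 in the WT female and male, a ratio of 1.93 (0.775 to 5.42). Wdr78, of cilia too, had 4, 3 and 2 counts in the db/db females and male, against 7 and 5 in the WT female and male. Every db/db library was lower, without overlap, at a ratio of 0.532 (0.198 to 1.38). These intervals cover counting error only. With every gene of at least 10 summed counts in the test, none of the 35 members passed, against 0.931% of 14078 genes, and 4 of the 35 had an unadjusted p under 0.05 (11.4%, against 12.4%). In that fit Foxd3 and Mroh7 were past 2-fold (5.71% of the members, against 5.96% of all genes), and the adjusted p was 0.351 for Foxd3 and 0.432 for Mroh7. Groups did not overlap for 42.9% of these 35 members, against 30.6% of all genes in that fit. By direction, 31.4% were lower in db/db, against 16.2%, and 11.4% higher, against 14.4%.

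More members passed with sex in the model. With sex as a covariate, which left 2 residual degrees of freedom, Jak1, Pde4b and Prkaa2 passed. Their log2 fold changes were -0.42, -0.94 and -0.69 (adjusted p = 0.0487, 0.00992 and 0.00483), so Jak1 lay just under the threshold. These were 3 of 31, or 9.68%, against 6.63% of all genes (2.02% lower and 4.62% higher) and 5.31% of the other genes of chromosome 4. With the length trend taken out as well, 2 passed (Pde4b and Prkaa2), or 6.45%, against 3.67% of all genes, and Jak1 had an adjusted p of 0.205. The difference between the sexes in the response to genotype, tested as an interaction with 1 residual degree of freedom, passed for no member, against 1.16% of all genes. Its unadjusted p was under 0.05 for Nfia, Sgip1, Plpp3, Patj and Leprot (16.1%), against 9.87% of all genes.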

How the data were processed

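Per the submitters' processing notes, HISAT, Bowtie2 and DESeq2 were used on GRCm38.p6, with no version given. The authors' deposit was 1 table of coding genes, with estimated counts, FPKM and TPM per library. The deposited estimated counts were not normalized, 91.4% were whole as printed, and their counting program is not named in the sources used here. The deposited FPKM values, per length and library size, were used for gene lengths and levels, and the deposited TPM values were only read. The table's own log2 fold changes for db/db over WT, as deposited, were quoted where named. Its deposited p-values were not used, and its deposited q-values were quoted with the fold changes.

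Counts were rounded. Genes were filtered with filterByExpr, scaled by TMM and tested by genotype with edgeR 4.0.16 (robust quasi-likelihood F test, R 4.3.3) in 1 fit over 12540 genes, with Benjamini-Hochberg adjustment over all of them and a threshold of 0.05. Every adjusted p without another name is from this test. SE came from the F statistics and intervals from the t distribution. A count of 0 allows up to 3 counts, or 0.289 to 0.359 CPM, for counting error only. Totals per library were 9964739 and 10381326 (db/db females), 8356099 (db/db male), 9119182 (WT female) and 8895194 (WT male). The interaction and sex models used the same counts. The scripts were tested on simulated data.

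The members follow from a rule of position and count, but the window and the lists were proposed with earlier results of these data known. The 31 members named under the rule were the 12 with the smallest p, the 4 nearest on each side of Lepr and a list of chosen genes. Itgb3bp, Foxd3, Efcab7 and Mroh7, outside the rule, were also named. Some members and family genes are not reported here by name; they stay in every count and median. Liver markers summed to 1.53 to 3.24 CPM in db/db and 0.487 to 1.20 CPM in WT. White adipocyte markers summed to 0.816 to 1.75 CPM in db/db and 0.109 to 0.584 CPM in WT; fibroblast markers to 737 to 937 CPM in db/db and 650 to 814 CPM in WT, smooth muscle markers to 181 to 303 CPM in db/db and 228 to 269 CPM in WT, and macrophage markers to 46.6 to 55.7 CPM in db/db and 52.8 to 53.6 CPM in WT. Alternatives were DESeq2 1.42.0, limma-voom (limma 3.58.1), RLE scaling, library totals, other count filters, sex as a covariate, females alone, the title number as a block, limma on log2(FPKM + 1) and log2(FPKM + 0.1), an offset for length (loess, span 0.3), other windows, and leaving out each library. Chosen after seeing the data were the length offset with sex and leaving out the db/db male together with the WT female. Whether same-numbered titles pair the libraries could not be told from these data.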

Additional observations from a re-analysis of the deposited data

How the results depend on the processing

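The 129 genes called over the whole table became 241 with DESeq2, 832 with sex in the model, 984 in the females only, 460 with the length offset and sex, 433 without the db/db male and WT female, and 25 (without the WT female) to 240 (without the db/db male) when 1 library was left out. No member was called in the fit reported. DESeq2 called 1, library totals called 1, and 3 were called with sex in the model, 2 in the females only and 2 with the length offset and sex. Leaving out 1 library gave 0 to 1. The median absolute log2 fold change of the members (0.238) was 0.40 with library totals (0.251 for all other genes) and 0.363 with log2(FPKM + 0.1) (0.236), and 0.18 (0.176, without the db/db male) to 0.316 (0.195, without the WT female) when 1 library was left out. It was below that of other genes in the females only (0.232 against 0.241) and without the WT male (0.257 against 0.267). Their median log2 fold change (-0.224) kept its sign in all of these alternatives. It was -0.40 with library totals, -0.278 with log2(FPKM + 1), -0.363 with log2(FPKM + 0.1), -0.145 in females alone, -0.137 with the length offset, -0.121 with the length offset and sex, -0.097 without the db/db male and WT female, -0.054 for the 74 members of a window wider by 5 Mb on each side, and -0.231 to -0.078 when 1 library was left out. With library totals and both FPKM scales the median of all genes was itself -0.189, -0.146 and -0.173. The cause of these changes was not tested.

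With the sample titles' numbers as a replicate block, 80 genes and 0 members were called. Deviations of same-numbered libraries correlated by 0.1, -0.13 and -0.18. With 2 WT libraries, the correlations with the other WT library were these values with the opposite sign (-0.1, 0.13 and 0.18). The check therefore cannot tell whether the numbers pair the samples. Depth limited the members under 1 CPM most, and where leaving out a library or choosing females left 1 WT library, its spread was taken to be that of the db/db libraries.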
